A study of Mus musculus with 8 samples.

Results

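The genes described here are the mouse interferon receptor chains and the Janus kinases (JAKs) bound to them: Ifngr1, Ifngr2, Ifnar1, Ifnar2, Ifnlr1, Jak1, Jak2 and Tyk2. They were chosen by name, as the rows of a count table whose Ensembl IDs map to these symbols in the GENCODE mouse annotation, and all 8 were found among 55414 gene IDs. RNA was measured in Paneth cells (PCs), the antimicrobial secretory cells at the crypt base, purified on a cell sorter from the small intestine of WT mice 3 hours after injection of PBS, the vehicle control, or of tumor necrosis factor (TNF), an inflammatory cytokine. Each group had 4 libraries. The study's methods describe C57BL/6J mice and 1 mouse per sorted sample, so the libraries were taken as replicates. A legend in its supplement says that sorted cells were pooled, without saying whether over mice. The sources used here do not give the mice's age, the dose or the route of injection.

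Interferons signal through receptors made of paired chains, each of which holds a JAK on its inner side. Interferon gamma (type II) is bound by IFNGR1, which carries JAK1, together with IFNGR2, which carries JAK2. Type I interferons use IFNAR2, which carries JAK1, and IFNAR1, which carries TYK2. Interferon lambda (type III) uses IFNLR1 with JAK1, and shares its second chain, IL10RB with TYK2, with the interleukin-10 and interleukin-22 receptors. The JAKs phosphorylate STAT transcription factors, which then act on target genes. Type III responses are known above all from epithelia such as that of the gut.

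The receptor genes Ifnar2, Il10rb, Ifnar1 and Ifngr2 lie side by side on the plus strand of chromosome 16 within 192.9 kb (GRCm39). The promoters of 4 genes are shown: Ifnar2, Ifngr2 and Jak2 because they were the members with a match to a searched motif, and Tyk2, which had none, because it was the one member that fell. The other 4 members rose as well and had no match. Each runs 5′ to 3′ on the gene's own strand, from 250 bases before to 50 bases after the start of the canonical transcript: chr16:91169421-91169720, chr16:91343656-91343955 and chr19:29228427-29228726 on the plus strand, and chr9:21042640-21042939 on the minus strand. Capitals mark a motif match.
Ifnar2: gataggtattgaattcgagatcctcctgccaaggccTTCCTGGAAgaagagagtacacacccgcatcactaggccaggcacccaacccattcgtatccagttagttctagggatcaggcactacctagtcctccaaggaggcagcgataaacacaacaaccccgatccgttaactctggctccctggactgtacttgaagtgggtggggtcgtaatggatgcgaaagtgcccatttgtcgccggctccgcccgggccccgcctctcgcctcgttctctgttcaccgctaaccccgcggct
Ifngr2: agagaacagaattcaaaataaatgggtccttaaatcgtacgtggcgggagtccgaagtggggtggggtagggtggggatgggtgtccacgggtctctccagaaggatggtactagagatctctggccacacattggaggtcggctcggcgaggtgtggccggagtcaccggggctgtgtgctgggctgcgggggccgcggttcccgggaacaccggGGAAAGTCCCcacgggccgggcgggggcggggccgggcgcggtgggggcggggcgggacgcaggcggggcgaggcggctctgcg
Jak2: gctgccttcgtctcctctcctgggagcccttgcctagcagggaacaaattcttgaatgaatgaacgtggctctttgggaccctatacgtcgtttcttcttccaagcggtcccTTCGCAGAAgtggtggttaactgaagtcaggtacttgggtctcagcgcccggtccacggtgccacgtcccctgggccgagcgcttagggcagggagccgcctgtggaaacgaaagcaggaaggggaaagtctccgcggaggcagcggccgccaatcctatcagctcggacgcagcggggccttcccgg
Tyk2: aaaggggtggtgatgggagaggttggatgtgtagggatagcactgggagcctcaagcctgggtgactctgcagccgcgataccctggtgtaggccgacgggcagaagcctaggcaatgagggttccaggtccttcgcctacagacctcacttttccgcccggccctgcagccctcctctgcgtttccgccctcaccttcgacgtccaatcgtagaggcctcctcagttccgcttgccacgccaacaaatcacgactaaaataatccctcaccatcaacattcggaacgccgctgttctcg
The capitals in Ifnar2 and Jak2 are matches to the STAT-binding element GAS (TTCNNNGAA, which reads the same on both strands), 214 and 138 bases before the start. Those in Ifngr2 match the NF-kB consensus on the minus strand, 34 bases before the start. The core of the interferon-stimulated response element (ISRE) was searched on both strands as well and had no match in the promoters of the 8 members, and no other match of the 3 motifs was found in them. Of 21627 promoters of protein-coding genes of the same length, 8.85% held GAS, 3.83% the ISRE core and 4.85% the NF-kB consensus. A match describes letters, not a bound factor.

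Library totals were 23824717 to 32576077 counts. One library stood apart, TNF replicate 4: its trimmed mean of M-values (TMM) scaling factor was 0.448, against 0.995 to 1.36 in the other 7, and the 20 genes with the most counts over the series took 79.3% of its counts, against 58.2% to 66.2% in the others. Values below are CPM, counts relative to the library total, after TMM scaling (normalized CPM), and results were recomputed without that library. Of the Paneth markers, 9 of 9 matched genes were tested, and they took 42.3% to 54.2% of the counts of a library, which matched the label of the cells. Their summed normalized CPM was 311620 to 459670 in PBS, 388820 to 453430 in TNF replicates 1 to 3 and 1209900 in TNF replicate 4. The summed normalized CPM of 13 immune markers was 9.92 to 14.6 in PBS, 14.0 to 16.6 in TNF replicates 1 to 3 and 71.4 in TNF replicate 4, and 7 of them (Cd3e, Cd3g, Cd8a, Trdc, Gzma, Cd79a and Adgre1) were at 0 in every library. For 8 stromal and endothelial markers the sum was 0.223 to 0.453 in PBS and 1.23 to 1.73 in TNF, with Col1a2 and Col3a1 at 0 in every library. Sums for 7 goblet cell markers were 7160 to 11190 in PBS, 11243 to 12030 in TNF replicates 1 to 3 and 25451 in TNF replicate 4, and for 7 tuft and enteroendocrine markers 21.7 to 39.0, 39.9 to 48.9 and 113. Those of 8 enterocyte markers were 119 to 164 in PBS, 71.7 to 87.6 in TNF replicates 1 to 3 and 129 in TNF replicate 4, and those of 6 stem cell markers 1597 to 2476 in PBS and 1335 to 1887 in TNF. No gene of these 4 lists was at 0 in every library. Of the 6 stem cell markers, 5 were called lower and 0 higher (median log2 fold change -1.37). Over the genes tested 19.6% were called lower and 23.3% higher. Calls among tested markers of the other lists were 2 higher of 9 (Paneth) and 1 higher and 2 lower of 7 (goblet). They were 2 lower of 8 (enterocyte), 3 higher of 6 (tuft and enteroendocrine), 1 higher of 3 (immune) and 1 higher of 1 (stromal and endothelial). How far these marker levels bear on the results was not tested.

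The comparison of TNF with PBS asks how the cytokine changed PC mRNA within 3 hours. All 5 receptor chains and the kinases Jak1 and Jak2 rose, and the kinase Tyk2 fell. The rises ran from 1.77-fold for Jak1 to 3.64-fold for Jak2, and the fall of Tyk2 was 1.34-fold. Counted against all 13368 genes tested, 8 of 8 members were called (7 higher, 1 lower), where 43.0% of the genes were called, 23.3% higher and 19.6% lower. The normalized CPM of the groups did not overlap for any of the 8, as was so for 42.1% of the genes. The median log2 fold change of the 8 members was 1.24, beside 0.03 over the genes tested. The members and the lists below were chosen with earlier results of these data known, so such contrasts are a description. Tests were made with edgeR (quasi-likelihood), p was adjusted after Benjamini-Hochberg over the genes tested, and a call means an adjusted p under 0.05. These are levels in RNA from many sorted cells together, so fewer cells with the mRNA and less of it per cell cannot be told apart.

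The chains of the interferon gamma receptor were both well expressed and both rose. Ifngr1 (ENSMUSG00000020009, chr10:19467697-19485977, plus strand) encodes the ligand-binding chain. Its normalized CPM was 26.0, 25.5, 28.0 and 27.1 in PBS replicates 1 to 4 and 51.4, 52.1, 49.4 and 60.6 in TNF replicates 1 to 4. The PBS libraries lay close together, every TNF library was above them, and TNF replicate 4 was the highest. The log2 fold change was 1.00 (SE 0.11, edgeR adjusted p = 3.07e-05). Ifngr2 (ENSMUSG00000022965, chr16:91343906-91362512, plus strand) encodes the chain that brings JAK2 to the complex. It was at 22.7, 23.6, 24.1 and 24.2 normalized CPM in PBS and at 65.2, 84.2, 61.6 and 76.0 in TNF. Its PBS libraries were nearly equal and every TNF library was far above them, at 1.60 on the log2 scale (SE 0.12, edgeR adjusted p = 3.86e-06), a change above that of 95.3% of the genes tested.

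Of the type I receptor chains, Ifnar1 rose by more than Ifnar2. Ifnar1 (ENSMUSG00000022967, chr16:91281942-91305789, plus strand), the chain that holds TYK2, was at 16.4, 12.9, 14.6 and 14.9 normalized CPM in PBS and at 37.0, 48.4, 44.7 and 33.0 in TNF. TNF replicate 4 was the lowest of its group and still above every PBS library, and the log2 fold change was 1.47 (SE 0.14, edgeR adjusted p = 1.75e-05). Ifnar2 (ENSMUSG00000022971, chr16:91169618-91202723, plus strand), the chain that holds JAK1, was low, with 60 to 199 counts per library. Its normalized CPM was 2.90, 4.76, 3.43 and 2.76 in PBS and 5.65, 6.89, 6.74 and 5.16 in TNF. Here the groups came close, with PBS replicate 2 only just under TNF replicate 4. Ifnar2 rose by 0.84 on the log2 scale (SE 0.20, edgeR adjusted p = 0.00627).

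The specific chain of the interferon lambda receptor rose while its shared partner was not called. Ifnlr1 (ENSMUSG00000062157, chr4:135413514-135435492, plus strand) had 55 to 263 counts per library. Its normalized CPM was 2.15, 2.12, 2.17 and 3.64 in PBS and 6.28, 7.65, 9.23 and 6.96 in TNF. PBS replicate 4 stood above the other 3 PBS libraries, which were nearly equal, and all TNF libraries were above it. The log2 fold change was 1.57 (SE 0.22, edgeR adjusted p = 0.000207). Il10rb (ENSMUSG00000022969, chr16:91203012-91224600, plus strand), no member but the second chain of this receptor, was at 24.6, 24.0, 24.4 and 28.8 normalized CPM in PBS and at 24.7, 27.0, 25.9 and 28.4 in TNF. The groups overlapped over most of their range. Its log2 fold change was 0.06 (95% interval -0.18 to 0.29, edgeR adjusted p = 0.692), and with library size alone as the scaling the value was -0.36, also not called.

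Among the kinases, Jak2 had the largest rise of the 8 genes and Tyk2 moved the other way. Jak1 (ENSMUSG00000028530, chr4:101008838-101122487, minus strand), which serves all 3 receptor types, was at 85.4, 70.2, 75.2 and 86.4 normalized CPM in PBS and at 126, 139, 148 and 148 in TNF. Every TNF library was well above the PBS range, and the gene rose by 0.82 on the log2 scale (SE 0.12, edgeR adjusted p = 0.000300). Jak2 (ENSMUSG00000024789, chr19:29228677-29290505, plus strand), the kinase of IFNGR2, was at 27.0, 24.7, 27.4 and 37.9 normalized CPM in PBS and at 97.7, 122, 129 and 76.2 in TNF. PBS replicate 4 was the highest of the controls and TNF replicate 4 the lowest of the treated, and the groups were still far apart. The log2 fold change of Jak2 was 1.86 (SE 0.19, edgeR adjusted p = 2.99e-05), above that of 96.4% of the genes tested.

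Tyk2 (ENSMUSG00000032175, chr9:21015363-21042689, minus strand), the kinase of IFNAR1 and IL10RB, was at 23.5, 23.3, 21.1 and 23.2 normalized CPM in PBS and at 17.4, 16.1, 15.4 and 19.3 in TNF. All TNF libraries were below all PBS libraries, with TNF replicate 4 nearest to them. The log2 fold change was -0.42 (SE 0.11, edgeR adjusted p = 0.0102). The fourth kinase of the family, Jak3 (no member), which pairs with the common gamma chain of interleukin receptors, was at 2.92 to 3.31 normalized CPM in PBS and 6.20 to 8.34 in TNF, and rose by 1.21 on the log2 scale (edgeR adjusted p = 7.55e-05), a call lost with library size alone (0.79, adjusted p = 0.0669).

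**Figure D1:**
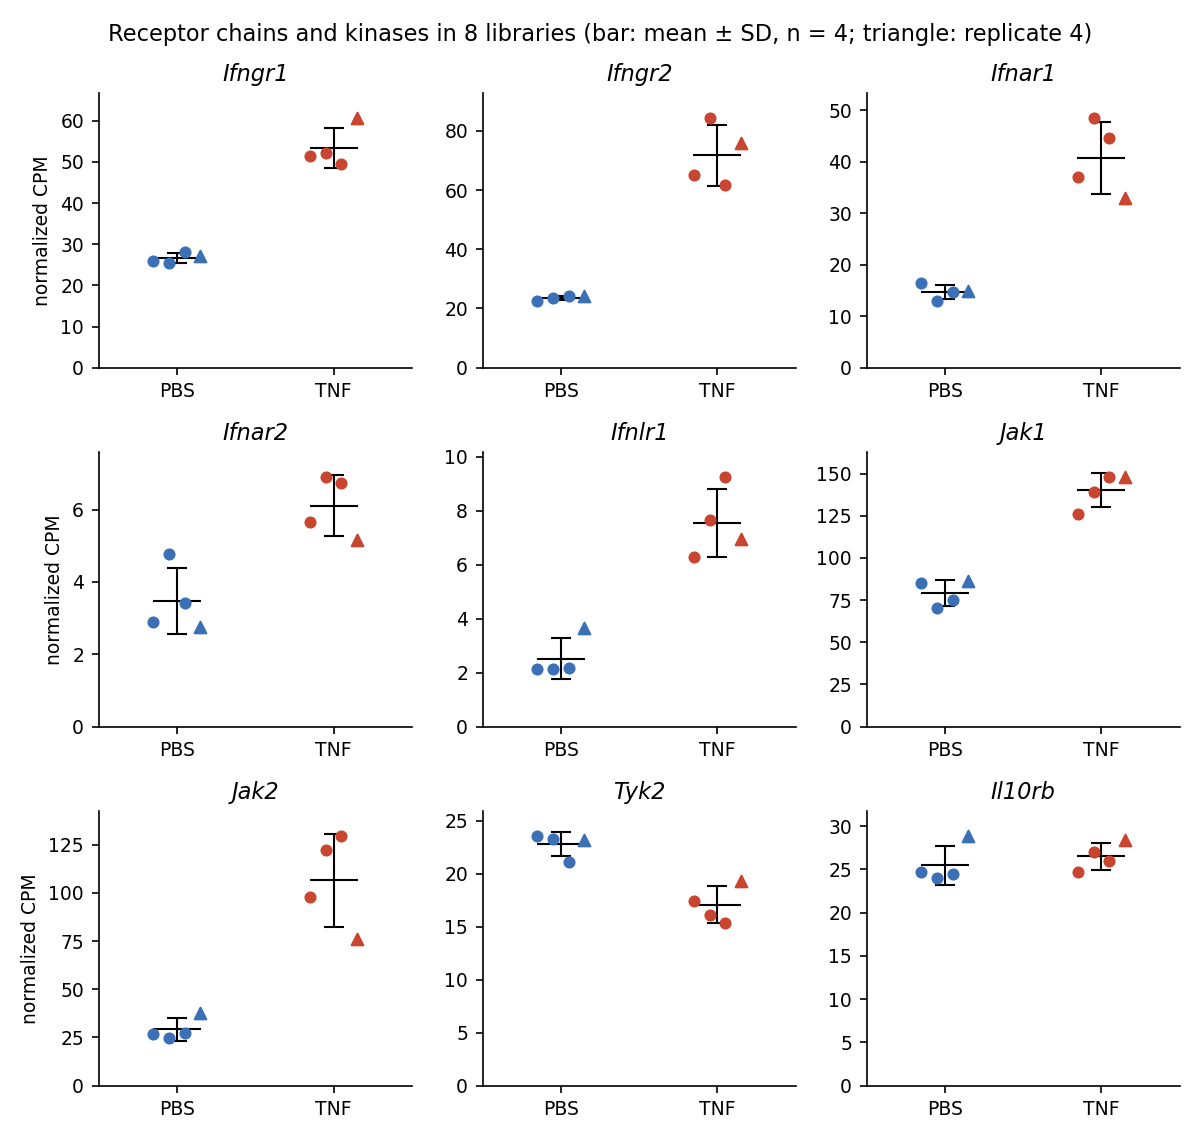
Normalized CPM (y axis, from 0) of the 8 members and of Il10rb in 4 PBS (blue) and 4 TNF (red) libraries, with replicate 4 of each group as a triangle and the mean ± SD as a bar. The groups are apart for the 8 members, with Tyk2 at 15.4 to 19.3 in TNF below 21.1 to 23.5 in PBS, and overlap for Il10rb.

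These values depend on the scaling between libraries. Without TNF replicate 4, the log2 fold changes ran from 0.81 for Jak1 to 2.01 for Jak2 among the genes that rose. Tyk2 was at -0.47 (edgeR adjusted p = 0.00210), and all 8 were called, beside 6923 of 13726 genes tested. With library size alone and all 8 libraries, the median of the genes tested moved by -0.40, the share of higher among all calls went from 54.3% to 23.8%, and 4 members stayed called, Ifngr2 (1.19), Ifnar1 (1.11), Ifnlr1 (1.17) and Jak2 (1.51). Ifngr1 (0.58), Ifnar2 (0.49), Jak1 (0.41) and Tyk2 (-0.84) kept their direction and were not called there. In that setting 757 of 13368 genes were called higher and 2425 lower. In unscaled CPM 2 of the 8 members, Ifngr2 and Tyk2, did not overlap between the groups, as was so for 35.6% of the genes on that scale. Relative to the median of the genes tested, Tyk2 was at -0.45 with TMM and -0.46 with library size alone, and Jak2 at 1.84 and 1.89. With library size alone but without TNF replicate 4, an alternative chosen after the data were seen, 7 members were again called higher and 1 lower. Over all genes 2249 and 3876 of 13726 were called higher and lower there.

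**Figure D2:**
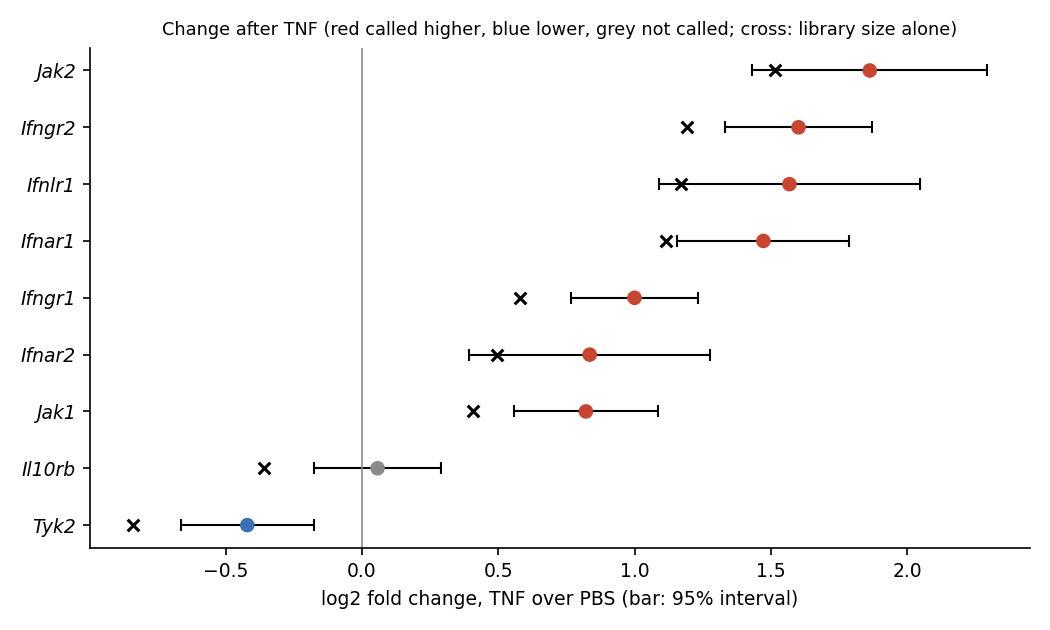
Log2 fold change of TNF over PBS (x axis) with its 95% interval for the 8 members and Il10rb, coloured red where called higher, blue where called lower and grey where not called; crosses give the value with library size alone. Jak2 (1.86) leads and Tyk2 (-0.42) is the only coloured point to the left of 0, and every cross lies to the left of its point.

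Ratios of counts of 2 genes in the same library do not depend on that scaling, so 6 of them were compared with an exact permutation test, two-sided, which takes all 70 assignments of libraries to groups. Genes differ in length, so only the change of a ratio is read, not its size. In all 6 the PBS and TNF libraries did not overlap. The p of each was 0.0286, the smallest these assignments can give, and stayed 0.0286 after Benjamini-Hochberg adjustment over the 6.

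Of these ratios, 3 were between the mRNA counts of the chains of a receptor. Ifngr1 to Ifngr2 was 1.15, 1.08, 1.17 and 1.12 in PBS and 0.789, 0.619, 0.802 and 0.797 in TNF, and every TNF library was below every PBS library (difference in mean log2 ratio -0.59). Ifnar1 to Ifnar2 was 5.65, 2.70, 4.25 and 5.36 in PBS and 6.54, 7.01, 6.61 and 6.36 in TNF. The TNF libraries were close to each other and the PBS libraries spread widely, with PBS replicate 2 lowest (difference 0.62). Without that library the difference was 0.39 (exact permutation test, adjusted p = 0.0343), and without any one TNF library the adjusted p was 0.0857. Ifnlr1 to Il10rb was 0.0875, 0.0892, 0.0896 and 0.127 in PBS and 0.255, 0.283, 0.356 and 0.247 in TNF. Every TNF library was thus well above PBS replicate 4, the highest control (difference 1.54, a 2.91-fold shift toward the interferon lambda chain).

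All 3 ratios between the kinases shifted. Jak1 to Jak2 was 3.17, 2.84, 2.74 and 2.28 in PBS and 1.29, 1.14, 1.14 and 1.94 in TNF, with replicate 4 of both groups nearest to the other group (difference in mean log2 ratio -1.03). Without any one PBS library the adjusted p of the exact permutation test was 0.0571. Jak1 to Tyk2 was 3.63, 3.01, 3.56 and 3.73 in PBS and 7.22, 8.66, 9.60 and 7.63 in TNF (difference 1.24). Jak2 to Tyk2 was 1.15, 1.06, 1.30 and 1.64 in PBS and 5.60, 7.61, 8.40 and 3.94 in TNF. That last shift, 2.27 on the log2 scale or 4.83-fold, was the largest of the 6, and TNF replicate 4 was the nearest to the controls.

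**Figure D3:**
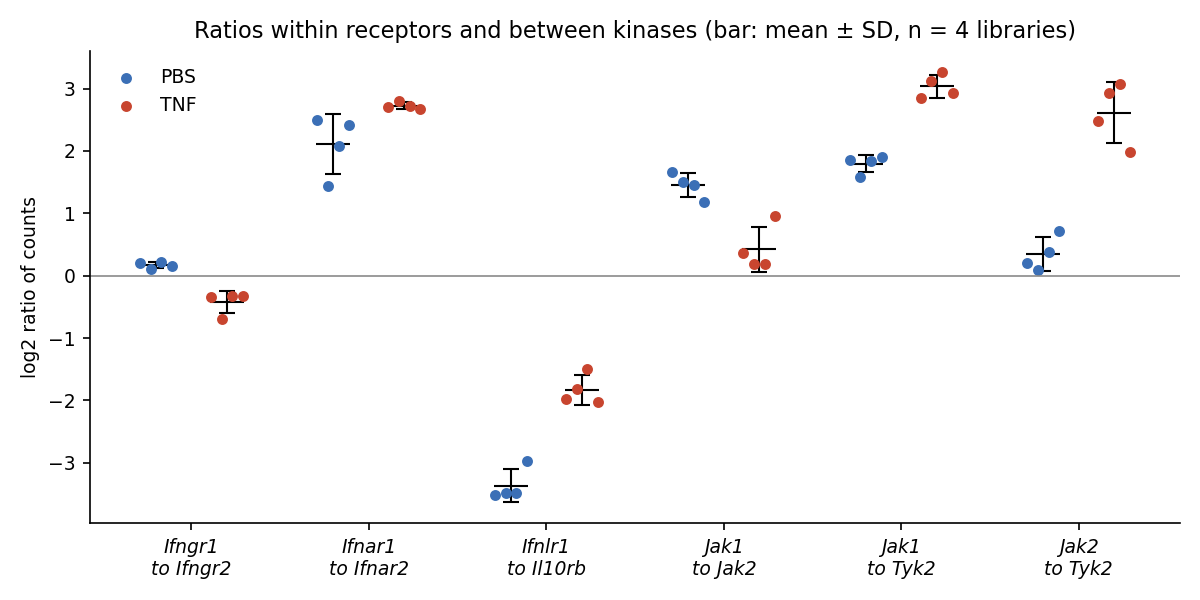
Log2 ratio of counts (y axis) for 6 pairs of genes in 4 PBS (blue) and 4 TNF (red) libraries, with the mean ± SD as a bar. In each pair the blue and red points do not overlap, and Jak2 to Tyk2 moves farthest, from a mean of 0.34 to 2.61.

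Levels of different genes were set side by side as normalized CPM per kb of merged exons, as a description with no test. In PBS the order was Ifngr1 (9.36 ± 0.40, SD, n = 4), Jak1 (7.32 ± 0.73), Ifngr2 (5.23 ± 0.15), Jak2 (4.62 ± 0.93), Tyk2 (2.60 ± 0.13), Ifnar1 (1.81 ± 0.18), Ifnar2 (0.925 ± 0.24) and Ifnlr1 (0.591 ± 0.18). Ranges over the 4 libraries overlapped between Ifngr2 and Jak2 and between Ifnar2 and Ifnlr1, so these neighbours did not differ beyond their spread. PBS-treated PCs held more mRNA per length of both interferon gamma chains than of the type I chains or of Ifnlr1, and Il10rb, at 4.15 ± 0.37, was above Ifnlr1. Ifngr1 was above 89.5% of the genes tested on this scale and Ifnlr1 above 26.6%.

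In TNF the order per kb became Ifngr1 (18.7 ± 1.74), Jak2 (16.8 ± 3.83), Ifngr2 (15.9 ± 2.29), Jak1 (12.9 ± 0.95), Ifnar1 (5.02 ± 0.86), Tyk2 (1.95 ± 0.20), Ifnlr1 (1.77 ± 0.30) and Ifnar2 (1.63 ± 0.23), each with n = 4. Jak2 passed Jak1 in mean by this length and Ifnar1 passed Tyk2. The ranges of Jak2 and Jak1 overlapped, and in TNF replicate 4 Jak2 (12.0) was below Jak1 (13.6). Among neighbours in the order, ranges overlapped between Ifngr1 and Jak2, Jak2 and Ifngr2, Tyk2 and Ifnlr1, and Ifnlr1 and Ifnar2. With the length of the canonical transcript in place of merged exons, Jak1 (14.1 ± 1.40) and Ifngr1 (12.6 ± 0.53) changed places in PBS with overlapping ranges, and the other 6 kept their rank. In TNF by canonical length, Jak1 (24.9 ± 1.82) stayed above Jak2 (19.4 ± 4.41), again with overlapping ranges, while Ifnar1 was above Tyk2 by either length.

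**Figure D4:**
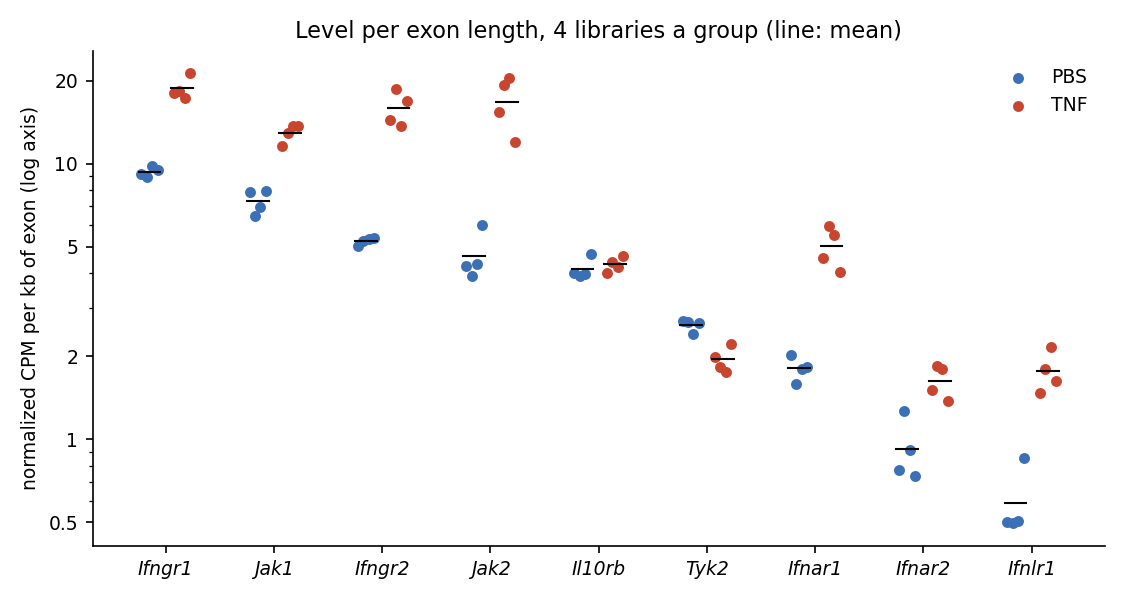
Normalized CPM per kb of merged exons (log y axis) of the 8 members and Il10rb, ordered by the mean in PBS, in 4 PBS (blue) and 4 TNF (red) libraries with the mean as a line. The interferon gamma chains, Jak1 and Jak2 are at 11.6 to 21.3 in TNF. Ifnlr1 and Ifnar2 rise to 1.38 to 2.16, and Tyk2 is at 1.76 to 2.21.

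Around the chromosome 16 receptor genes, neighbouring genes moved in both directions. Of 31 annotated genes in the table that start in the cluster or within 250 kb of it, 13 were tested, 6 were called higher, 2 lower and 5 not called, beside 23.3% higher and 19.6% lower over the genes tested. The 13 include Il10rb and the members Ifnar2, Ifnar1 and Ifngr2, which define the window, so the counts are not those of neighbours alone. With library size alone the counts were 3 higher and 2 lower, beside 757 and 2425 of 13368 genes tested. Besides Ifnar2, Ifnar1 and Ifngr2, the genes called higher were Tmem50b (log2 fold change 0.93, SE 0.16, not called with library size alone), Donson (1.47, SE 0.18), a DNA replication gene, and Son (0.59, SE 0.16), a splicing factor, which lost its call with all 3 library size scalings (0.14 to 0.32) and at a threshold of 0.01. Dnajc28 fell from 4.04 ± 0.39 to 0.652 ± 0.22 normalized CPM (SD, n = 4; log2 fold change -2.67) and the endocytic scaffold gene Itsn1 was also called lower (-0.88). Il10rb, between Ifnar2 and Ifnar1, was not called, nor were Gart (0.15), Cryzl1 (0.31), Gm15964 (0.22) and Gm10785 (0.25). Gm15964 overlaps Dnajc28 and Gart, Son overlaps Gart and Donson, and Gm10785 overlaps Cryzl1, each on the other strand, so their counts depend on whether strand was used, which the sources used here do not give.

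**Figure D5:**
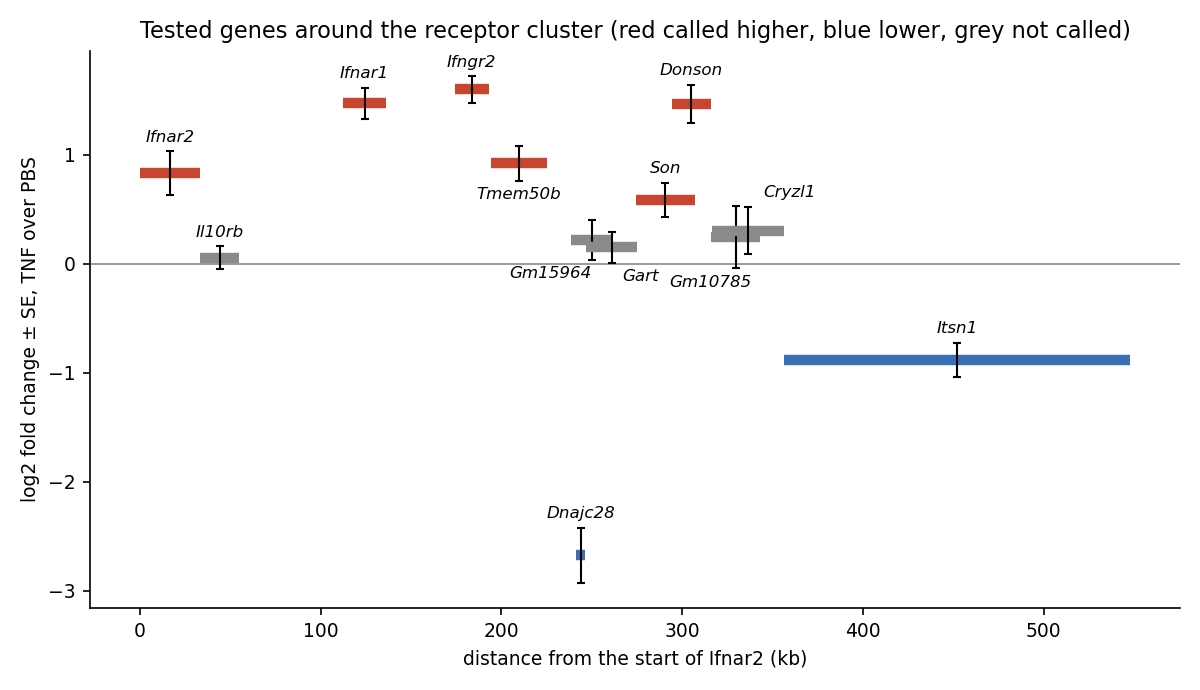
Log2 fold change of TNF over PBS ± SE (y axis) of the 13 tested genes around the receptor cluster, each drawn as a bar over its length by distance in kb from the start of Ifnar2 (x axis). Ifnar1 and Ifngr2 reach 1.47 and 1.60, Il10rb sits at 0.06 between Ifnar2 and Ifnar1, and Dnajc28 is at -2.67.

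Some members also share annotated positions with other genes. Gm21970, a protein-coding gene whose exons overlap those of both Ifnar2 and Il10rb on the same strand, had 0 counts in the 8 libraries, and the sources used here do not give how reads in the shared exons were assigned. Raver2, on the other strand, shares exon positions with Jak1 and had 465 counts over all libraries, or 1.91% of those of Jak1. The antisense lncRNA 1700084C06Rik shares exon positions with Tyk2 and had 1021 counts, or 21.8% of those of Tyk2. Its log2 fold change was 0.55 (edgeR adjusted p = 0.0816), of opposite sign to that of Tyk2 and not called. If strand was not used, reads of Tyk2 and this gene cannot be told apart where they overlap.

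The ligands of the receptors were nearly absent from the sorted cells. Of 21 interferon genes (Ifng, Ifnb1, Ifne, Ifnk, Ifnz, Ifnab, Ifnl2, Ifnl3 and 13 Ifna genes), 20 had no count in any library, and Ifnz had 3 counts in TNF replicate 1. A count of 0 allows up to 3 counts per library, or 0.0679 to 0.258 normalized CPM, for counting error only. None was tested. The Ifna genes are near-identical copies, and the sources used here do not give how reads that match several genes were counted.

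All 4 listed transcription factors below the receptors, Stat2, Stat3, Irf9 and Irf1, were called higher, beside 23.3% of the genes tested, with a median log2 fold change of 1.88. Irf1, a factor induced by interferon gamma and also by NF-kB, went from 28.2 ± 2.91 to 144 ± 19.3 normalized CPM (SD, n = 4). Stat2, a factor of the type I and III response, rose by 1.73 on the log2 scale and Stat3, used by the interleukin-6 family, by 2.02. With library size alone 3 of the 4 were called higher, beside 757 of 13368 genes tested.

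Of 15 inhibitors of receptor and JAK signalling 14 were tested, and 8 were called higher, 1 lower and 5 not called (median 0.73), beside 23.3% higher and 19.6% lower over the genes tested. Socs3, which blocks JAK bound to gp130-type receptors, was at 4.72 to 10.1 normalized CPM in PBS and at 322 to 455 in TNF. Cish, another SOCS family gene, was at 2.07 to 3.55 and 25.7 to 38.7, and Ptpn2, a phosphatase of JAK1, at 11.7 to 13.0 and 32.1 to 48.1. These 3 had the smallest p of the list, and 8 of the 14 did not overlap between the groups, beside 42.1% of the genes tested. Pias3, an inhibitor of STAT3, was the one called lower (log2 fold change -0.58). Without TNF replicate 4, 2 genes were called lower, Pias3 and the phosphatase gene Ptpn6, the latter named after its values were seen. In that setting 3266 of 13726 genes tested were called lower.

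Known target genes of the receptors were mostly higher. Of 19 type I and III target genes 15 were tested. Of these 13 were called higher and 0 lower, beside 23.3% and 19.6% of the genes tested (median log2 fold change 1.28). Rsad2, named after its values were seen, had 2 to 5 counts per PBS library. It passed the expression filter through the TNF libraries, so a lower call was hardly possible. Isg15, the ubiquitin-like modifier, stayed low, at 0.322 to 0.513 normalized CPM in PBS and 2.87 to 3.44 in TNF. Zbp1, a nucleic acid sensor, was at 5.69 to 7.47 in PBS and 18.9 to 25.0 in TNF, and the RNA sensor Ifih1 at 21.6 to 23.7 and 48.7 to 50.8. With library size alone 5 of these genes were called higher, beside 757 of 13368 genes tested, and Ifih1 was not. Of 18 interferon gamma target genes 17 were tested. Of these 16 were called higher and 0 lower (median 2.28), against 23.3% and 19.6% of the genes tested. With library size alone 12 were called higher, beside the same 757 of 13368 genes. Tap1, the peptide transporter of antigen presentation, was at 7.61 to 8.79 in PBS and 35.1 to 52.3 in TNF. The GTPase genes Gbp5 (0 to 0.136 and 6.87 to 11.8) and Irgm2 (2.87 to 3.98 and 22.6 to 39.5) were the other 2 of smallest p. With 0 to 6 counts per PBS library, Gbp5 likewise passed the filter through the TNF libraries. The counts of calls in both lists therefore lean toward higher. Many genes of both lists are known to respond to NF-kB as well, and the share of either route in these counts was not tested.

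Of 28 other cytokine receptor chains that use JAKs 14 were tested, 5 were called higher, 2 lower and 7 not called, beside 23.3% higher and 19.6% lower over the genes tested, with a median log2 fold change of 0.05, beside 1.24 for the 8 members. Osmr, the oncostatin M receptor chain, was at 0 to 0.107 normalized CPM in PBS and 13.1 to 22.4 in TNF. With 0 to 4 counts per PBS library, Osmr passed the expression filter through the TNF libraries, so a lower call was hardly possible. Il6st, which encodes its partner GP130, had a mean of 28.3 in PBS and 166 in TNF, and Il4ra was at 18.2 to 20.3 and 70.3 to 134. All 3 use JAK1 and had the smallest p of the list. Of its 14 tested genes 8 did not overlap between the groups, beside 42.1% of all genes tested. The genes called lower were Il6ra (log2 fold change -2.18) and Prlr (-1.81), named here after their values were seen.

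The genes whose profile over the 8 libraries was most like that of Jak2 and Tyk2 were found by Pearson correlation of log2 normalized CPM with 8491 tested genes of at least 5 normalized CPM on average. All libraries enter, so the points share the group difference, and the values are a description. For Jak2 they were Itprid2 (r = 0.998), Src (0.997) and Ralgds (0.997), whose own log2 fold changes were 1.46, 0.93 and 3.32. For Tyk2 they were Ivns1abp (0.989), Nadsyn1 (0.985) and Cnnm3 (0.984), with log2 fold changes of -0.71, -0.68 and -1.37.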

How the data were processed

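RNA-seq was done on sorted Paneth cells in 8 libraries, 4 after PBS and 4 after TNF, made with a stranded mRNA kit. The authors deposited 1 table of raw counts per Ensembl gene ID, with no normalization; the submitters' processing notes name FastQC 0.12, STAR 2.7.10a, DESeq2 and the mm39 build. The sources used here do not give the counter, its use of strand or its treatment of reads that match several genes. Symbols and positions came from GENCODE M39 (GRCm39), which matched 54749 of 55414 IDs. Groups and replicate numbers follow the labels. The members and lists were chosen with earlier results of these data known. Some items of these lists are not reported here.

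Genes were filtered with filterByExpr (13368 tested), scaled with TMM and tested with the quasi-likelihood test of edgeR 4.0.16 (R 4.3.3), which was tested on simulated data, with Benjamini-Hochberg adjustment and a threshold of 0.05. Ratios of counts, with 0.5 added to both genes, had a two-sided exact permutation test over 70 assignments. Levels were normalized CPM per kb of merged exons. Motifs were searched on both strands of 300 base promoters. Alternatives were RLE scaling, library size alone, TMM without Defa genes, other filters, DESeq2 1.42.0, limma-voom (limma 3.58.1), a replicate block, a threshold of 0.01, 1 added count, canonical length and leaving out each library. Named genes were the members, Il10rb, the tested neighbours within 250 kb of the cluster, the 3 genes of smallest p in each other pathway list, and the 3 genes most like Jak2 and Tyk2 in profile. Within each group, no 2 libraries agreed within sampling noise. Depth was 23824717 to 32576077 counts per library. Intervals and limits from counts cover counting error only.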

Additional observations from a re-analysis of the deposited data

Results flagged for a closer look

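Of 30 groups of 4 libraries, over the 9 genes and 6 ratios, 5 held a library farther from the rest than Dixon's 95% critical value allows, where chance flags about 1 in 20. In PBS replicate 4, Ifnlr1 was at 3.64 and Il10rb at 28.8 normalized CPM, both above the other PBS libraries, and the log2 ratio of Ifnlr1 to Il10rb was -2.98, also the highest of its group. In PBS replicate 3, Tyk2 was at 21.1 normalized CPM, below the other PBS libraries and above every TNF library. In TNF replicate 2, the log2 ratio of Ifngr1 to Ifngr2 was -0.69, below the other TNF libraries, and without that library the difference from PBS was -0.50.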

How the results depend on the processing

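The 8 members kept their direction under all 19 alternatives, with 7 called higher and 1 lower in each except library size alone (4 higher, 0 lower) and an adjusted p under 0.01, where Tyk2 was not called (7 higher, 0 lower). Leaving out any one library kept all 8 calls, and so did both scalings added after the data were seen. With library size alone 757 genes were called higher in place of 3121. With library size without the 20 top genes 1771 were called higher and 4239 lower in place of 2625, and at 0.01 1691 were called lower. Genes with no call changed sign with library size alone (Il10rb -0.36, Gm15964 -0.11, Gart -0.18, Gm10785 -0.27, Cryzl1 -0.22), with that scaling without TNF replicate 4 (Il10rb -0.15, Gm10785 -0.25, Cryzl1 -0.15) and without the 20 top genes (Il10rb -0.23, Gm15964 -0.042, Gart -0.11, Gm10785 -0.068, Cryzl1 -0.014). Gm10785 ran from -0.065 to 0.41 when libraries were left out. Ifngr1, Ifnar2, Jak1 and Tyk2 lost their calls with library size alone, as did the named genes Jak3 (0.79), Ifih1 (0.75), Tmem50b (0.54) and Son (0.14); type I and III targets called higher went from 13 to 5 and cluster genes from 6 to 3. Inhibitors called lower were 1 in the main test, 3 without the 20 top genes, 2 without TNF replicate 4 under either scaling and 0 at 0.01, and other JAK-using chains called lower went from 2 to 4 without the 20 top genes. The cause was not tested.

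Same-numbered libraries did not deviate together (correlations -0.144 to 0.0663), which gave no sign of pairing by number. With 4 libraries per group this check cannot exclude a pairing. A replicate block in edgeR left 7 members called higher and 1 lower, and 5087 genes called in place of 5746. With the block, the sign-flip test of the ratios gave p = 0.125, the smallest that 4 pairs allow in this exact test, for differences of -0.59 (Ifngr1 to Ifngr2), 0.62 (Ifnar1 to Ifnar2), 1.54 (Ifnlr1 to Il10rb), -1.03 (Jak1 to Jak2), 1.24 (Jak1 to Tyk2) and 2.27 (Jak2 to Tyk2). When libraries were left out, Ifnar1 to Ifnar2 ran from 0.39 to 0.75 and Jak1 to Jak2 from -1.20 to -0.95. Adding 1 count changed no call. In the order per length, 2 members changed rank with canonical length and 6 in the TNF libraries. Of the 8 members the SE was largest for Ifnlr1 (0.22), Ifnar2 (0.20) and Jak2 (0.19).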
